A study of Homo sapiens with 6 samples.

Results

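This account covers 10 genes of WNT signalling chosen by name from the 60591 gene rows of the count table. They are the WNT ligand genes WNT3, WNT5A, WNT5B, WNT7A, WNT7B and WNT10A, the genes of the secreted proteins DKK1, DKK3 and SFRP1, and AXIN2, which encodes an intracellular scaffold and is neither a ligand nor a secreted antagonist. The study measured RNA by sequencing in KYSE150 cells, an established human line from an oesophageal squamous cell carcinoma, with 3 libraries from cells given TPA and 3 from cells given the solvent DMSO. TPA is a phorbol ester that activates protein kinase C. Per the labels it was given at 10 ng/ml for 24 h to cells that had been starved of serum overnight, and no dose or time is given for DMSO. Both groups come from 1 cell line. Whether each library had its own culture is not stated, so the p-values rest on the spread between these libraries, which may be technical.

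WNT proteins are secreted lipid-modified ligands that bind Frizzled receptors. In the canonical branch a Frizzled receptor and the co-receptor LRP5 or LRP6 stop the destruction complex, built on AXIN and APC, from degrading beta-catenin, which then acts with TCF and LEF proteins on target genes. DKK1 blocks this branch by binding LRP5 and LRP6, secreted Frizzled-related proteins such as SFRP1 bind the ligands themselves, and AXIN2 is a widely used target gene and feedback inhibitor.

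Library totals ran from 27702329 to 33965547 counts. Levels are given in CPM, the count scaled to library size with TMM factors, and a count of 0 in a library allows a level of up to 0.0915 to 0.109 CPM (3 counts). The 8 squamous epithelial markers summed to 1052 to 2100 CPM in TPA libraries and 1402 to 2981 CPM in DMSO libraries, while the 10 fibroblast, endothelial and leukocyte markers summed to 7.47 to 19.9 CPM in TPA libraries and 12.9 to 20.2 CPM in DMSO libraries. Of the 7 squamous markers tested none passed edgeR's test with group alone, and with the block described next KRT6A was called higher (log2 3.35, adjusted p = 0.00153) and KRT5 (-2.102, adjusted p = 0.00151) and TP63 (-1.19, adjusted p = 0.0144) lower. SOX2 had too few counts over the 6 libraries to be tested. It was at 0, 0.302 and 0.293 CPM in TPA libraries 1, 2 and 3. In DMSO libraries 1, 2 and 3 it was at 0.165, 1.95 and 1.79 CPM. A fit without both libraries numbered 1 called it lower (log2 -2.48, adjusted p = 7.56e-06, edgeR), as it did 33.3% of all genes. CDH1 was the largest part of the sum in TPA libraries 1, 2 and 3, at 734, 1198 and 1179 CPM. It was also the largest in DMSO 1 (615 CPM), while KRT5 was the largest in DMSO 2 and DMSO 3 (1736 and 1780 CPM). CDH1 was higher in every TPA library than in any DMSO library (log2 0.65, adjusted p = 0.167, edgeR). The part of these markers in the results below was not tested. Among the others COL3A1 had counts in TPA 1 and DMSO 1 only. COL1A1 averaged 7.54 CPM in TPA and 9.35 CPM in DMSO libraries, and CD68 4.42 CPM in TPA and 1.89 CPM in DMSO libraries. Of the 5 tested none passed with group alone. With the block CD3E was called lower (log2 -1.31, adjusted p = 0.0330), in a fit that called 4.58% of all genes higher and 6.52% lower. The library number, shared by TPA 1 and DMSO 1, TPA 2 and DMSO 2, and TPA 3 and DMSO 3, moved many genes in both groups. A second fit takes this number as a block, and its counts or values are given where it changed a call.

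Of the 10 genes, 7 had enough counts to be tested, namely WNT3, WNT5B, WNT7A, WNT7B, WNT10A, DKK1 and DKK3. None of the 7 passed edgeR's quasi-likelihood test at an adjusted p under 0.05, where 1.26% of 21825 genes passed (0.861% higher and 0.394% lower). At an unadjusted p under 0.05 there were 3 of the 7, against 22.1% of all genes, and DESeq2 called 1 higher (DKK1) and 0 lower, against 7.80% and 4.19% of all genes. The levels of WNT3, WNT5B and DKK1 did not overlap between groups and were higher in TPA, which held for 14.3% of all genes, and no member was lower without overlap, against 15.2% of all genes. In bulk RNA a change in the RNA of each cell and a change in the make-up of the culture cannot be told apart.

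The clearest difference was that of DKK1, the co-receptor antagonist (chromosome 10, 52314296 to 52318042, GENCODE 29 on GRCh38). Its level was 247.6, 169 and 185 CPM in TPA libraries 1, 2 and 3, against 153, 82.3 and 83.4 CPM in DMSO libraries 1, 2 and 3. Every TPA library lay above every DMSO library, and library 1 was the highest of each group. The log2 fold change was 0.92 ± 0.31 (SE, n = 3 each), with an adjusted p of 0.146 by edgeR's quasi-likelihood test. With the library number as a block it passed at 0.96 ± 0.24 and an adjusted p of 0.0299, in a fit that called 11.1% of all genes. DESeq2 gave 1.01 ± 0.35 with an adjusted p of 0.0382. With 1 library left out in turn the log2 fold change lay between 0.77 and 1.28. DKK1 then passed edgeR's test only without TPA 1 (adjusted p = 0.0305), and otherwise the adjusted p was between 0.0915 and 0.469. Of the 2206 exon bases of DKK1, 212 are shared with the antisense gene PRKG1-AS1, and the strand setting of the counting is not given in the sources used here. PRKG1-AS1 had 45, 26 and 27 counts in TPA libraries 1, 2 and 3 and 47, 29 and 24 counts in DMSO libraries 1, 2 and 3.

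The 250 bases before the RefSeq start of DKK1 (GRCh38.p14, chr10:52314031-52314280, plus strand) are shown because DKK1 had the lowest p of the members and is itself a known target of beta-catenin. Capitals mark the letters TCAAAG, the core read by TCF and LEF proteins, on either strand.
DKK1: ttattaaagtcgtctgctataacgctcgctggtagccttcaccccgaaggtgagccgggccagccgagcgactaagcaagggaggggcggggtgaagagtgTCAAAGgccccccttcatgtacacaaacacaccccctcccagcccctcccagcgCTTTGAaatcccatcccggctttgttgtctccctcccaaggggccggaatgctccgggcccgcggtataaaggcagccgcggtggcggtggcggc
These letters begin 149 and 95 bases before the start, the first as spelled and the other on the opposite strand. They were chosen with this sequence in view. TCAAAG is in 11.2% of 35116 RefSeq windows of this length, and 0.977% hold it at least 2 times. The letters TGACTCA, the AP-1 site known as the phorbol ester response element, and TGACGTCA, the cyclic AMP response element, are in 4.20% and 1.65% of windows. Neither is in the 8 windows given for 6 of the members (WNT3, WNT5A, WNT5B, WNT7A, WNT10A and DKK1), and TCAAAG is in none of the 7 windows other than that of DKK1. A match in a window is a description and not a bound site, and these letters may lie outside it.

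DKK3 (chromosome 11, 11963106 to 12009769), a divergent DKK family member that is often silenced in tumours, ran the other way. It was at 50.5, 154 and 140.2 CPM in TPA libraries 1, 2 and 3, against 109.6, 221 and 223 CPM in DMSO libraries 1, 2 and 3. Each TPA library was below the DMSO library of its number, but the groups overlapped, because TPA 2 and TPA 3 were above DMSO 1. The log2 fold change of -0.69 ± 0.46 did not pass (adjusted p = 0.416, edgeR), nor did -0.77 ± 0.24 with the block (adjusted p = 0.0619). With 1 library left out in turn the log2 fold change lay between -0.95 (without DMSO 1) and -0.22 (without TPA 1).

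**Figure D1:**
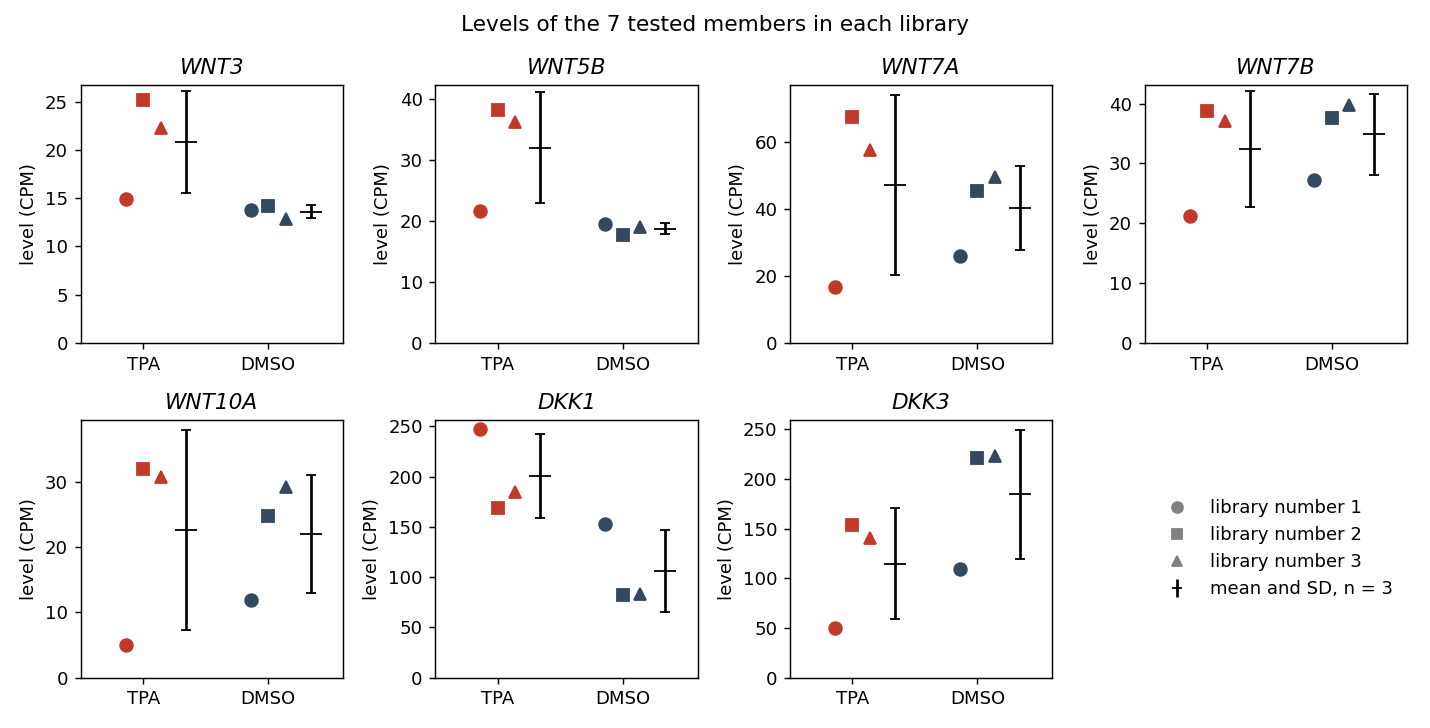
Level of each of the 7 tested genes in CPM (y axes, linear, each from 0) in the 3 TPA and 3 DMSO libraries, with the mean and SD beside the points and 1 symbol for each library number. WNT3, WNT5B and DKK1 are higher in every TPA library than in any DMSO library, while library number 1 (circles) is the lowest of both groups for WNT7A, WNT7B, WNT10A and DKK3 and the highest of both for DKK1.

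The ratio of DKK1 counts to DKK3 counts needs no scaling for library size. Trends with GC content, given below, do not cancel in it. It was 4.91, 1.10 and 1.32 in TPA libraries 1, 2 and 3, against 1.39, 0.372 and 0.374 in DMSO libraries 1, 2 and 3. Within each library number the TPA ratio was 3.52, 2.96 and 3.52 times the DMSO ratio for numbers 1, 2 and 3, although TPA 2 and TPA 3 lay below DMSO 1. This ratio was formed after the values were seen and has no test. With 3 libraries against 3 an exact permutation test could not go below 0.10.

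WNT5B (chromosome 12, 1529891 to 1647243), a ligand mostly tied to signalling without beta-catenin, was at 21.6, 38.3 and 36.3 CPM in TPA libraries 1, 2 and 3, against 19.5, 17.7 and 19.1 CPM in DMSO libraries 1, 2 and 3. The DMSO libraries were alike and TPA 1 lay just above them, so that the difference came mainly from TPA 2 and TPA 3. Its log2 fold change was 0.77 ± 0.27 (adjusted p = 0.157, edgeR), and 0.73 ± 0.26 with the block (adjusted p = 0.0871). WNT3 (chromosome 17, 46762506 to 46833154), a canonical ligand, had the same layout, at 14.9, 25.1 and 22.3 CPM in TPA libraries 1, 2 and 3, against 13.7, 14.2 and 12.9 CPM in DMSO libraries 1, 2 and 3. Its log2 fold change was 0.61 ± 0.26 (adjusted p = 0.215, edgeR), and 0.58 ± 0.25 with the block (adjusted p = 0.130). Without TPA 1 both passed edgeR's test, WNT5B at 1.10 (adjusted p = 0.000677) and WNT3 at 0.92 (adjusted p = 0.00168), as did DKK1 at 0.85 (adjusted p = 0.0305) and WNT7A at 0.75 (adjusted p = 0.0422). That made 4 members higher and 0 lower, in a fit that called 24.6% of all genes higher and 27.8% lower (52.5% in all). Without both libraries numbered 1, which leaves 2 libraries in each group, 5 members were called higher (WNT3, WNT5B, WNT7A, WNT10A and DKK1) and 1 lower (DKK3). That fit called 65.5% of all genes, 32.2% higher and 33.3% lower.

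WNT7A, WNT7B and WNT10A differed more by library number than by treatment, as did DKK3. WNT10A (chromosome 2, 218880363 to 218899581), a ligand of skin and tooth development, was at 4.93, 32.0 and 30.8 CPM in TPA libraries 1, 2 and 3, against 11.9, 24.8 and 29.3 CPM in DMSO libraries 1, 2 and 3. Libraries 2 and 3 averaged 6.37 times library 1 in TPA and 2.27 times library 1 in DMSO. WNT7A (chromosome 3, 13816258 to 13880121) was at 16.6, 67.3 and 57.5 CPM in TPA libraries 1, 2 and 3, against 26.0, 45.2 and 49.4 CPM in DMSO libraries 1, 2 and 3. WNT7B (chromosome 22, 45920362 to 45977129), a close paralogue of WNT7A, was at 21.2, 38.8 and 37.1 CPM in TPA libraries 1, 2 and 3, against 27.2, 37.6 and 39.8 CPM in DMSO libraries 1, 2 and 3. The groups overlapped for all 3 ligands. Their signs changed with the scaling between libraries. The log2 fold changes were 0.04 ± 0.65 for WNT10A, 0.23 ± 0.51 for WNT7A and -0.11 ± 0.30 for WNT7B, with adjusted p of 0.977, 0.813 and 0.857 (edgeR). On the log2 scale the means of numbers 1 and of numbers 2 and 3 differed by 1.92 for WNT10A, 1.38 for WNT7A, 0.67 for WNT7B, 1.28 for DKK3 and 0.68 for DKK1, against a median of 0.54 over all genes tested, and by 0.32 for WNT3 and 0.35 for WNT5B. The means of TPA and DMSO differed by 0.27 for WNT10A, 0.05 for WNT7A, 0.14 for WNT7B and 0.77 for DKK3. They differed by 0.96 for DKK1, 0.58 for WNT3 and 0.73 for WNT5B, against a median of 0.50 over all genes tested.

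Within each library number, the log2 ratio of TPA to DMSO for WNT10A was -1.27 for number 1, against 0.37 for number 2 and 0.08 for number 3. WNT7A had the same layout, with -0.64 for number 1 and 0.57 and 0.22 for numbers 2 and 3. WNT7B had -0.36, 0.05 and -0.10 for numbers 1, 2 and 3. DKK1, with 0.70, 1.04 and 1.14, WNT3, with 0.12, 0.83 and 0.79, and WNT5B, with 0.15, 1.11 and 0.93, were above 0 for every number, and DKK3, with -1.12, -0.52 and -0.67, below 0. For every number, 22.6% of all genes had a higher level with TPA and 29.6% a lower one.

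The ratios for numbers 2 and 3 followed the GC content of transcripts across all genes, while those for number 1 hardly did. Over 12009 expressed genes the fitted trend at a GC content of 61.3% was 0.62 for number 2 and 0.47 for number 3, but -0.06 for number 1, and at 38.6% it was -1.02, -0.83 and 0.08 for numbers 2, 3 and 1. The GC content of the longest transcript was 65.4% for WNT10A, 63.0% for WNT7B, 58.6% for WNT5B, 55.3% for WNT7A and 51.1% for WNT3, and 53.4% for DKK3. It was 42.3% for WNT5A, which was not tested. DKK1 had 43.5%, and its ratios stood against a trend of -0.59 for number 2 and -0.36 for number 3. For number 1 the trend was 0.05 for DKK1 and 0.03 for DKK3. For numbers 2 and 3 it was 0.55 and 0.44 for DKK3, so it does not cancel in the ratio of DKK1 to DKK3. For WNT5B the trend was 0.62 and 0.47 and for WNT3 0.42 and 0.37, below the ratios of both genes. For WNT10A and WNT7B, at 0.60 and 0.61 for number 2, it was above the ratios. Whether GC content accounts for any of these differences was not tested.

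**Figure D2:**
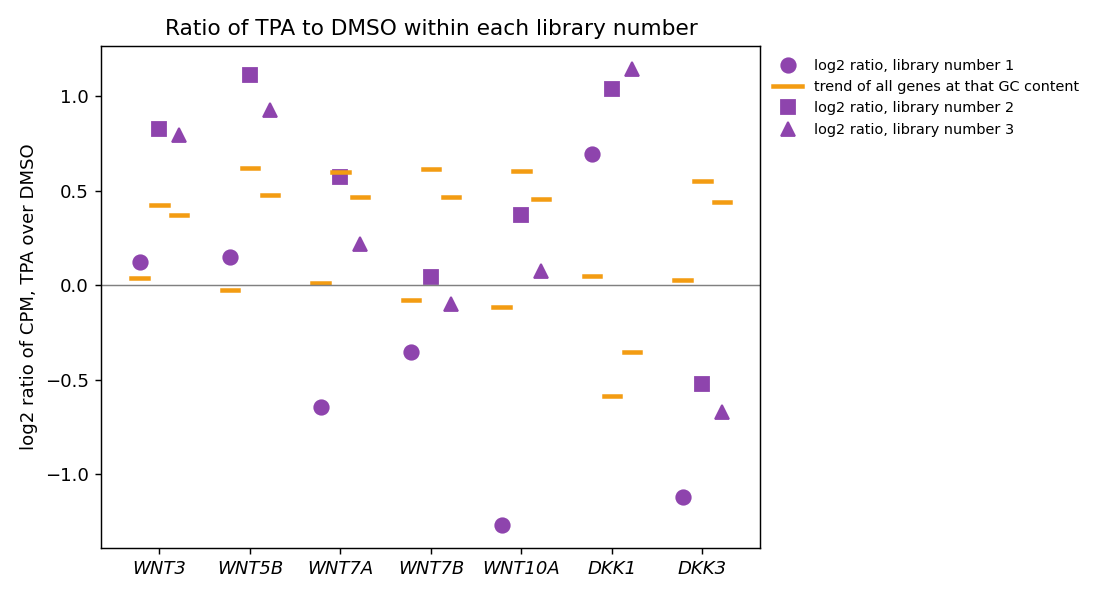
Log2 ratio of CPM in the TPA library to that in the DMSO library of the same number (symbols), and the fitted trend of all genes at that gene's GC content in the same pair of libraries (bars). For numbers 2 and 3 the ratios of DKK1 (1.04 and 1.14) lie above a negative trend and those of DKK3 (-0.52 and -0.67) below a positive trend.

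A fit that keeps the block and removes each library's GC trend called 1 of the 7 members higher and 2 lower, in a setting where 20.0% of genes were called, 9.24% higher and 10.7% lower. The one higher was DKK1, at 1.25 ± 0.20 on the log2 scale (adjusted p = 0.0152). The lower ones were DKK3, with -1.12 ± 0.09 (adjusted p = 0.00349), and WNT7B, with -0.48 ± 0.11 (adjusted p = 0.0365), all by edgeR. WNT5B had 0.36 (adjusted p = 0.0768) and WNT3 0.29 (adjusted p = 0.146), lower than without the correction. WNT10A, at -0.57 (adjusted p = 0.0846), and WNT7A, at -0.32 (adjusted p = 0.154), turned negative. WNT7B was called under no other setting tried.

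**Figure D3:**
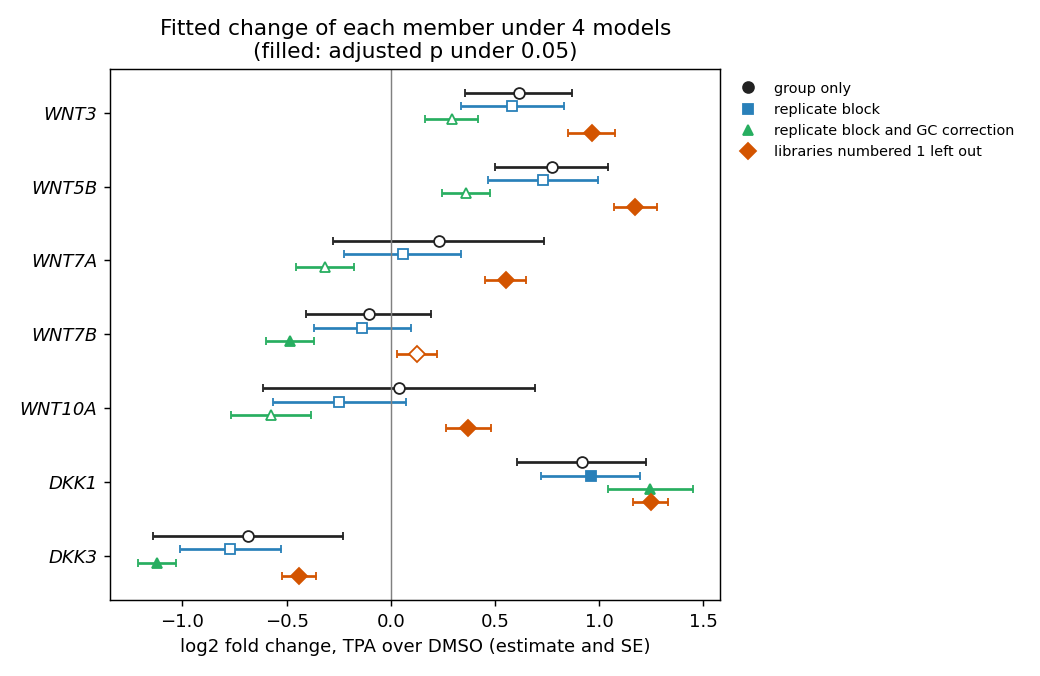
Log2 fold change of TPA over DMSO with its SE for the 7 tested genes under 4 edgeR models, with filled symbols where the adjusted p is under 0.05. DKK1 lies between 0.92 and 1.25 and DKK3 between -1.12 and -0.44 in all 4 models, while WNT7A, WNT7B and WNT10A change sign between models.

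Levels of different genes were set side by side per kb of the longest transcript. DKK1 and DKK3 were the most abundant of the 10. DKK1 averaged 112 ± 23.2 CPM per kb in TPA and 59.3 ± 22.6 in DMSO, and DKK3 43.3 ± 21.2 in TPA and 69.7 ± 24.5 in DMSO (SD, n = 3 each), so that in DMSO the 2 did not differ beyond their spread. DKK1 was above DKK3 in all 3 TPA libraries and in DMSO 1, and below it in DMSO 2 and DMSO 3. With the length of all exons DKK1 was the higher by mean in DMSO, at 48.1 ± 18.3 CPM per kb against 36.5 ± 12.8 for DKK3. Among ligands WNT5B was the highest by mean in TPA, at 13.9 ± 3.96 CPM per kb, followed by WNT7A at 11.7 ± 6.65, WNT10A at 8.87 ± 6.01, WNT7B at 8.26 ± 2.47 and WNT3 at 6.20 ± 1.57. In DMSO the order by mean was WNT7A at 9.95 ± 3.09, WNT7B at 8.89 ± 1.72, WNT10A at 8.63 ± 3.54, WNT5B at 8.15 ± 0.401 and WNT3 at 4.05 ± 0.196. Neighbouring ligands in either order overlapped within their SD, except that WNT3 stood below WNT5B in DMSO. With the length of all exons in place of the longest transcript, WNT5B was at 7.45 CPM per kb in TPA and 4.36 in DMSO, and WNT7A, at 10.3 in TPA and 8.78 in DMSO, was then the highest ligand in both groups.

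As a share of the summed level of the 6 ligands per kb, WNT5B made up 37.1%, 26.3% and 27.1% in TPA libraries 1, 2 and 3, against 27.7%, 18.1% and 18.02% in DMSO libraries 1, 2 and 3. The share was higher in TPA for each number, although TPA 2 and TPA 3 lay just below DMSO 1. These shares rest on the length of the longest transcript. With the length of all exons the mean share of WNT5B was 22.4% in TPA and 15.3% in DMSO. That of WNT7A was then the largest, at 27.2% in TPA and 29.2% in DMSO. WNT3 made up 17.6%, 11.9% and 11.4% in TPA libraries 1, 2 and 3, against 13.4%, 9.95% and 8.34% in DMSO libraries 1, 2 and 3. WNT7B took 21.4%, 15.6% and 16.3% in TPA libraries 1, 2 and 3, below the 22.6%, 22.6% and 22.1% of DMSO libraries 1, 2 and 3, with no overlap. Counts of WNT5B for each count of WNT7B need no scaling for library size. They were 1.02, 0.988 and 0.978 in TPA libraries 1, 2 and 3. In DMSO libraries 1, 2 and 3 they were 0.718, 0.472 and 0.480. The same ratio of WNT3 to WNT7B was 0.704, 0.649 and 0.601 in TPA libraries 1, 2 and 3, against 0.505, 0.377 and 0.324 in DMSO libraries 1, 2 and 3. Both ratios were higher in every TPA library than in any DMSO library. They were formed after the values were seen and have no test.

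**Figure D4:**
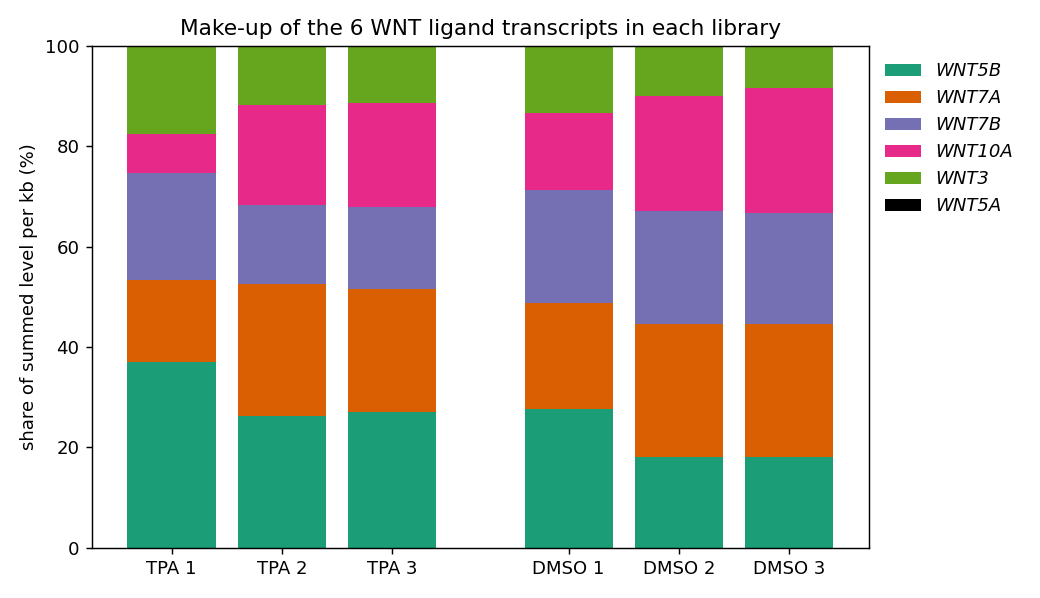
Share of each ligand (%) in the summed level per kb of the longest transcript of the 6 WNT ligand genes, 1 bar for each library. WNT7B takes 15.6% to 21.4% in TPA libraries and 22.1% to 22.6% in DMSO libraries, and WNT5A is too low to be seen.

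The remaining 3 members were at or near 0 in both groups and were not tested. SFRP1 (chromosome 8, 41261958 to 41309497) was listed at 0 in all 6 libraries. WNT5A (chromosome 3, 55465715 to 55490539), the close relative of WNT5B, had 1, 0 and 1 counts in TPA libraries 1, 2 and 3, against 2, 2 and 0 counts in DMSO libraries 1, 2 and 3. Summed over libraries that is a TPA over DMSO ratio of 0.533, with an exact 95% binomial interval of 0.0482 to 3.72 that covers counting error only. AXIN2 (chromosome 17, 65528563 to 65561647) had 5, 3 and 1 counts in TPA libraries 1, 2 and 3, against 4, 5 and 4 counts in DMSO libraries 1, 2 and 3, a ratio of 0.738 (0.279 to 1.87). No difference in either gene was detectable at this depth. An annotated gene on the same strand shares 1316 of the 5226 exon bases of AXIN2 and was listed at 0, so the count of AXIN2 is uncertain.

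The other genes of the pathway were taken from 7 lists named by role, written with earlier results of these data known. Among 13 other ligand genes 5 were tested, of which 1 rose, 0 fell and 4 did not pass. At an unadjusted p under 0.05 there were 3, against 22.1% of all genes, and DESeq2 called 1 higher and 1 lower, against 7.80% and 4.19% of all genes. The one that rose was WNT9A (chromosome 1, 227918656 to 227947898), a ligand known from joint formation in mice. It was at 17.9, 14.7 and 14.5 CPM in TPA libraries 1, 2 and 3, against 4.34, 4.03 and 4.01 CPM in DMSO libraries 1, 2 and 3. Both groups were tight and far apart, with a log2 fold change of 1.93 ± 0.23 (adjusted p = 0.0250, edgeR). With 1 library left out in turn the log2 fold change stayed between 1.91 and 1.99, but the adjusted p was between 0.0505 and 0.254 without any of DMSO 1, DMSO 2, DMSO 3, TPA 2 and TPA 3. With the block WNT2B and WNT6 were called lower too, at -1.43 (adjusted p = 0.0321) and -1.76 (adjusted p = 0.0167), in a fit that called 6.52% of all genes lower. WNT6 (chromosome 2, 218859821 to 218874233) lies next to WNT10A.

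Among 21 receptor and co-receptor genes 15 were tested, and none passed (edgeR). At an unadjusted p under 0.05 there were 7, against 22.1% of all genes, and DESeq2 called 0 higher and 4 lower, against 7.80% and 4.19% of all genes. Their median log2 fold change was -0.79, against -0.11 over all genes tested, and 6 of the 15 were lower without overlap, against 15.2% of all genes, and 1 (FZD7) higher, against 14.3%. With the block 0 were called higher and 7 lower, namely FZD1, FZD3, FZD4, FZD5, ROR1, KREMEN1 and LGR4, in a fit that called 6.52% of all genes lower. With the block and the GC correction 0 were called higher and 8 lower, against 9.24% and 10.7% of all genes, with a median of -0.69 against -0.15 over all genes. LGR4, a receptor for R-spondins, which strengthen WNT signals, was at 26.8, 24.2 and 22.8 CPM in TPA libraries 1, 2 and 3, against 47.6, 82.7 and 70.4 CPM in DMSO libraries 1, 2 and 3. Every TPA library was below every DMSO library, with a log2 fold change of -1.44 ± 0.26 (adjusted p = 0.0528 by edgeR, and 0.0113 with the block). FZD3, a Frizzled receptor, was at 15.1, 9.78 and 8.97 CPM in TPA libraries 1, 2 and 3, against 25.6, 26.4 and 26.2 CPM in DMSO libraries 1, 2 and 3 (log2 -1.21 ± 0.26, adjusted p = 0.0676 by edgeR, and 0.0152 with the block). For KREMEN1, a receptor for DKK1, the fit gave -0.86 ± 0.58 on the log2 scale (adjusted p = 0.419 by edgeR, and 0.0394 with the block).

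Of 18 tested cytoplasmic transducers none passed (edgeR), with 3 at an unadjusted p under 0.05 (22.1% of all genes) and 2 higher and 1 lower by DESeq2 (7.80% and 4.19% of all genes). The block called 1 higher and 3 lower, against 4.58% and 6.52% of all genes. The lowest p-values were those of CSNK1E, a kinase that acts on Dishevelled, at a log2 ratio of 1.02 ± 0.21 (adjusted p = 0.0651, and 0.0297 with the block), and DAAM1, a formin of the planar polarity branch, with -1.42 ± 0.39 (adjusted p = 0.0951, and 0.00832 with the block). Among 12 tested nuclear effectors 1 rose, 0 fell and 11 did not pass, with 2 at an unadjusted p under 0.05 and 2 higher and 0 lower by DESeq2, against the same shares of all genes. The block called 1 higher (BCL9L) and 1 lower, against 4.58% and 6.52% of all genes. The lower one was TCF7L1, a TCF factor, at a log2 fold change of -1.41 (adjusted p = 0.0133, edgeR). BCL9L (chromosome 11, 118893875 to 118925608), a cofactor of beta-catenin, rose to 455, 562 and 547 CPM in TPA libraries 1, 2 and 3, against 209, 226 and 214 CPM in DMSO libraries 1, 2 and 3. Its log2 fold change was 1.27 ± 0.19 (adjusted p = 0.0373, edgeR). It was between 1.23 and 1.47 with 1 library left out in turn, with an adjusted p between 0.0685 and 0.288 except without TPA 1 (0.000403). CTNNB1, the gene of beta-catenin itself, was at 330, 364 and 398 CPM in TPA libraries 1, 2 and 3, against 324, 416 and 372 CPM in DMSO libraries 1, 2 and 3.

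**Figure D5:**
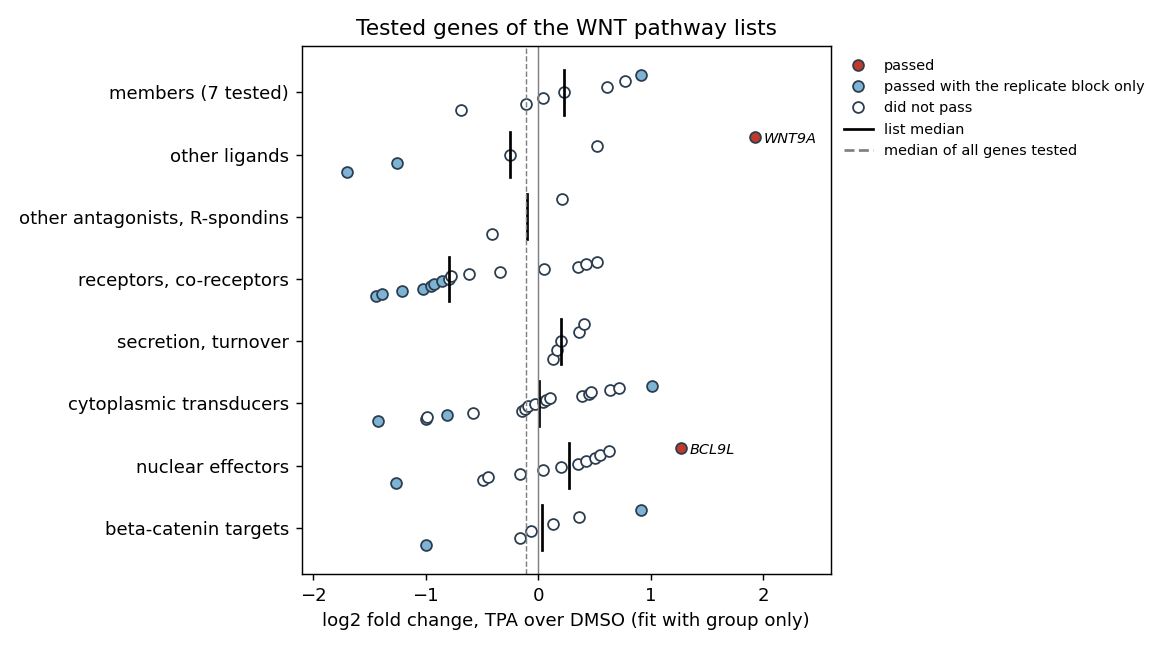
Log2 fold change of TPA over DMSO for the tested genes of the members and of 7 WNT pathway lists (x axis, fit with group only), with the median of each list as a bar and that of all genes (-0.11) as a dashed line. WNT9A and BCL9L passed, and the receptor list has a median of -0.79, with 7 of its 15 genes passing with the replicate block but not without it.

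Of 12 listed target genes of beta-catenin, which include the members AXIN2 and DKK1, 6 were tested and none passed (edgeR), with 1 at an unadjusted p under 0.05 and 1 higher and 0 lower by DESeq2, against 22.1%, 7.80% and 4.19% of all genes. Besides DKK1 the most abundant were ZNRF3, a relative of RNF43, with a mean of 40.9 CPM in TPA and 37.3 CPM in DMSO libraries, and TCF7, a TCF factor, with 26.0 CPM in TPA and 29.1 CPM in DMSO libraries. TNFRSF19 and APCDD1 were listed at 0 in every library, LEF1 had 1 count over all libraries, and LGR5 had at most 4 counts in a TPA library and 7 in a DMSO library. NKD1, a feedback inhibitor that binds Dishevelled, was at 1.89, 7.86 and 6.72 CPM in TPA libraries 1, 2 and 3, against 4.58, 14.1 and 14.2 CPM in DMSO libraries 1, 2 and 3. It was lower in TPA for each number, with a log2 fold change of -0.997 ± 0.60 (adjusted p = 0.371 by edgeR, and 0.0236 with the block). RNF43, the gene of a ubiquitin ligase that removes Frizzled receptors, was at 0.37 ± 0.21 on the log2 scale (adjusted p = 0.352, edgeR).

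Of 5 tested genes of WNT secretion and receptor turnover, and of 2 tested genes among the 16 other antagonists and R-spondins, none passed (edgeR), none had an unadjusted p under 0.05 and DESeq2 called 0. Over all genes 1.26% passed, 22.1% had an unadjusted p under 0.05, and DESeq2 called 7.80% higher and 4.19% lower. With so few genes tested, 0 calls do not set these lists apart from all genes. PORCN, the acyltransferase that lipidates WNT proteins, had 0.41 ± 0.29 (adjusted p = 0.447). SFRP5 (-0.41 ± 0.54, adjusted p = 0.680) and the R-spondin gene RSPO4 (0.21 ± 0.30, adjusted p = 0.702) were the 2 tested.

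The members' patterns over the 6 libraries were also set beside those of 12084 other genes. Since no member passed, the rule took the one with the lowest p, DKK1. The genes most like it by Pearson correlation of log2 CPM over 6 libraries were AKAP17A (r = 0.998), the chemokine gene CXCL2 (r = 0.998) and LPIN2 (r = 0.997). With so few libraries and so many genes, values this high describe these libraries only.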

How the data were processed

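Total RNA of KYSE150 cells (3 TPA and 3 DMSO libraries) was extracted with TRIzol and sequenced by standard Illumina methods, per the labels' protocols. The deposited table holds raw read counts per gene symbol, made by the authors with HISAT2 2.1.0 and HTSeq 0.12.4 on GRCh38 per the submitters' processing notes. Neither the annotation nor the strand setting is given in the sources used here. The table's control columns were read as the DMSO samples with those numbers.

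The whole table was fitted with edgeR 4.0.16 (R 4.3.3): TMM factors, filterByExpr (21825 genes kept), quasi-likelihood F-test with group as the only term, Benjamini-Hochberg adjustment over all genes and a threshold of 0.05. Each SE of an edgeR fit is the absolute log2 fold change over the square root of F. The SE of DESeq2 is the one its own fit reports, so the 2 kinds are not the same statistic. A count of 0 is bounded by 3 counts, and this floor and the intervals cover counting error only: reads lacking molecular identifiers are not independent. After subtracting group means, libraries with the same number correlated at 0.55, 0.34 and 0.37, so the number was treated as pairing them. The pairing rests on these values, since the labels state no shared culture. TPA 2 with DMSO 3 (0.37) and TPA 3 with DMSO 2 (0.36) were as high, so numbers 2 and 3 are not told apart. The GC correction fits each library's deviation of log2 CPM by a robust spline with 5 degrees of freedom on GC content of the longest GENCODE 29 transcript. Alternatives were RLE factors, library size only, 2 other filters, DESeq2 1.42.0, the block with and without the GC correction, and libraries left out.

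All members are named, with list genes that passed or, in lists with none, the 2 with the lowest p. Other names (WNT2B, WNT6, KREMEN1, FZD7, CTNNB1, TCF7L1, receptors called with the block, other target genes, single markers) were chosen after their values were seen. Members, lists and alternatives were chosen with earlier results of these data known. The edgeR fit, with and without the block, was tested on simulated counts that held no effect of library number and no GC trend. DESeq2 and the GC correction were not tested in this way. Promoter windows are from RefSeq (GRCh38.p14).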

Additional observations from a re-analysis of the deposited data

How the results depend on the processing

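Counts of called genes depended on the model and on single libraries. For the members, 0 were called higher and 0 lower with group as the only term, in a fit that called 1.26% of all genes. DESeq2, the replicate block and the block with the GC correction each called 1 higher, with 2 lower in the last of these. Over all genes these fits called 7.80%, 4.58% and 9.24% higher, and 4.19%, 6.52% and 10.7% lower. Without both libraries numbered 1 there were 5 higher and 1 lower, where 65.5% of all genes were called. With 1 library left out in turn there were 0 to 4 higher and 0 lower. The 4 were those without TPA 1, where 24.6% of all genes were called higher and 27.8% lower.

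Over all genes, 188 were higher and 86 lower with group as the only term. The counts were 429 and 202 with no filter, 1702 and 915 with DESeq2, 1000 and 1423 with the replicate block, 1943 and 2253 with the block and the GC correction, and 7216 and 7475 without both libraries numbered 1. Scaling by library size alone gave 219 lower and moved the median log2 fold change to -0.36, against -0.11 with TMM and -0.01 with RLE factors. With 1 library left out they were 0 to 5577 higher and 0 to 6297 lower, and 5577 and 6297 were those without TPA 1. Without DMSO 2 and without DMSO 3 both were 0, with 2612 and 2745 genes at an unadjusted p under 0.05.

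Over the pathway lists, 2 genes were higher and 0 lower, in a fit that called 0.861% of all genes higher and 0.394% lower. The 7 lists had 5, 2, 15, 5, 18, 12 and 6 genes tested, with some genes in more than 1 list. The member DKK1 is part of these lists as a target of beta-catenin, so it is in the counts where it was called. The counts were 6 and 6 with DESeq2, 4 and 13 with the block, 6 and 19 with the block and the GC correction, and 26 and 19 without both libraries numbered 1. In that order, these fits called 12.0%, 11.1%, 20.0% and 65.5% of all genes. By direction they called 7.80%, 4.58%, 9.24% and 32.2% higher, and 4.19%, 6.52%, 10.7% and 33.3% lower. There was 1 lower with library size only, with no filter and with the stricter filter, which asks every library of either group for 1 CPM or more. Over all genes these settings called 219 of 21825, 202 of 40368 and 123 of 16228 lower. With 1 library left out there were 0 to 23 higher and 0 to 12 lower. The 23 and 12 were those without TPA 1, where 24.6% of all genes were called higher and 27.8% lower.

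DKK1, WNT3, WNT5B and DKK3 kept their direction under all 14 settings tried, DKK3 with a leave-one-out range of -0.95 to -0.22. The others did not. The log2 fold change of WNT7A was -0.047 with library size only, -0.32 with the block and the GC correction, -0.093 without TPA 2 and -0.0013 without DMSO 1, and with 1 library left out it ran from -0.093 to 0.745 (without TPA 1). That of WNT7B was 0.0083 with RLE factors and with DESeq2, 0.0043 with no filter, 0.13 without both libraries numbered 1, 0.23 without TPA 1 and 0.01 without DMSO 3, with a leave-one-out range of -0.25 to 0.23. That of WNT10A was -0.24 with library size only, -0.055 with the stricter filter, -0.25 with the replicate block, -0.57 with the block and the GC correction, and -0.27, -0.23 and -0.25 without TPA 2, TPA 3 and DMSO 1, with a leave-one-out range of -0.27 to 0.626. The cause of these changes was not tested. Exon union length lowered levels per kb of WNT3, WNT5B, WNT7B and DKK3 by more than 1 SD in at least 1 group. Depth limits what can be said of WNT5A, AXIN2 and SFRP1.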
